A study of Mus musculus with 36 samples.

Results

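*Mir6236* and *Mir6240* are mouse microRNA genes that are held to lie in sequence resembling ribosomal RNA, and they are 2 of the 24781 genes in a count table of sorted tumour cells. They were selected because both differed strongly between the groups of tumour-associated macrophages (TAMs), so their differences between TAM groups are described here without a test. Both matched their entries in the annotation used here (2 of 2). A microRNA is normally cut from a hairpin in a longer transcript by Drosha and Dicer and guides Argonaute proteins to target RNAs through its seed, the bases from position 2 to 8. Ribosomal RNAs are cut from a long precursor made by RNA polymerase I in the nucleolus, make up most of the RNA of a cell and carry no poly(A) tail in their mature form. Trimming by the nuclear exosome, and short tails added to RNAs that are to be degraded, belong to the same pathway.

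All mice carried MC38 tumours, a mouse colon adenocarcinoma, and cells were sorted on day 7 after inoculation. TAMs (CD45+CD11b+F4/80 high) and CD8+ T cells (CD45+TCRβ+CD8+) each came from WT mice, from *muMt*-/- mice on C57BL/6J, which lack mature B cells, and from *muMt*-/- mice implanted with a GABA pellet. The treatment of the first 2 groups is labelled none, and the methods of the study describe a placebo pellet as the counterpart of GABA; WT mice of the study were C57BL/6J or C57BL/6N, and mice of both sexes aged 2 to 5 months were used. Each of the 6 groups had 6 libraries of 100 cells, prepared independently and 1 per mouse within the group, which gives 36 libraries in all. There was no WT group with a GABA pellet, so GABA was compared only within mice without B cells. The gene that the *muMt* mutation disrupts was not analysed here, and the genotype rests on the labels.

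The assay, digital RNA sequencing, fragments RNA by heat, copies it from a primer of T bases with a molecular barcode and counts distinct molecules. The depth of TAM libraries was 206394 to 304100 molecules in the WT group (median 242756), 100254 to 253608 in the *muMt*-/- group (median 149960) and 151856 to 262606 with GABA (median 192775). CD8+ T cell libraries were shallower, with 22896 to 98015 molecules, and here the WT group had the lowest median (42065.5, where the *muMt*-/- and GABA groups had 67121.5 and 80283). A library of a TAM group therefore always held more molecules than any CD8+ library, and depth and cell type cannot be told apart across all 36 libraries.

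The sorted cells carried the markers of their labels. In TAM libraries 12 of 12 macrophage markers were detected, led by *Apoe*. Their summed median share of all molecules was 1.10% (1.25% in WT mice, 0.929% in *muMt*-/- mice and 1.10% with GABA). T cell markers had a median of 0.00139% in TAM libraries. In CD8+ libraries 11 of 11 T cell markers were detected, with a summed median of 0.486% led by *Thy1*. B cell markers were at or near 0 in both cell types, and *Cd79a* and *Pax5* had no molecule in any library.

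*Mir6240*, a locus on chromosome 5, was low in TAMs of WT mice and high in TAMs of *muMt*-/- mice. The lowest, median and highest library held 16, 23.5 and 42 molecules in WT mice, 80, 111 and 142 in *muMt*-/- mice, and 24, 62.5 and 102 in *muMt*-/- mice with GABA. The *muMt*-/- and WT libraries did not overlap, in molecules or in share of the library, whereas the GABA libraries spread over both ranges. The share of all genes with no overlap between 2 groups was not counted. As a share, *Mir6240* made up 109 ± 51.0 CPM (molecules per 1000000 of the library; SD, n = 6) in WT mice, 734 ± 254 in *muMt*-/- mice and 328 ± 223 with GABA. The log2 difference between *muMt*-/- and WT mice was 2.77 (SE 0.32), and 6 of 6 libraries exceeded all WT libraries. Against *muMt*-/- mice the GABA group differed by -1.18 (SE 0.29), with 4 of 6 libraries below all of the *muMt*-/- group, and against WT mice by 1.60 (SE 0.32), with 4 of 6 above. These 3 contrasts share libraries, and they are the values on which the gene was selected. In bulk libraries, fewer cells of a type and less RNA per cell cannot be told apart.

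*Mir6236*, a locus on chromosome 9, went the other way in TAMs. Its lowest, median and highest library held 83, 120 and 176 molecules in WT mice, 13, 41.5 and 86 in *muMt*-/- mice, and 25, 43 and 62 with GABA. Every GABA library was below every WT library, and 5 of 6 *muMt*-/- libraries were. How many of all genes separated in this way was not counted. The shares were 522 ± 112 CPM (SD, n = 6) in WT mice, 261 ± 75.7 in *muMt*-/- mice and 224 ± 60.6 with GABA, which overlapped with *muMt*-/- mice without GABA in 5 of 6 libraries. The log2 differences were -0.92 (SE 0.20) between *muMt*-/- and WT mice, -0.29 (SE 0.21) between GABA and *muMt*-/- mice, and -1.21 (SE 0.20) between GABA and WT mice. So *Mir6240* was higher and *Mir6236* lower in *muMt*-/- than in WT TAMs, and with GABA *Mir6240* lay between these groups while *Mir6236* did not. Over all 9469 genes tested in TAMs with edgeR's quasi-likelihood test and Benjamini-Hochberg adjustment, 2.05% had an adjusted p under 0.05 between *muMt*-/- and WT mice, 0.0211% between GABA and *muMt*-/- mice and 0.0739% between GABA and WT mice. These shares are given as background only, because the genes were chosen by these contrasts.

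**Figure D1:**
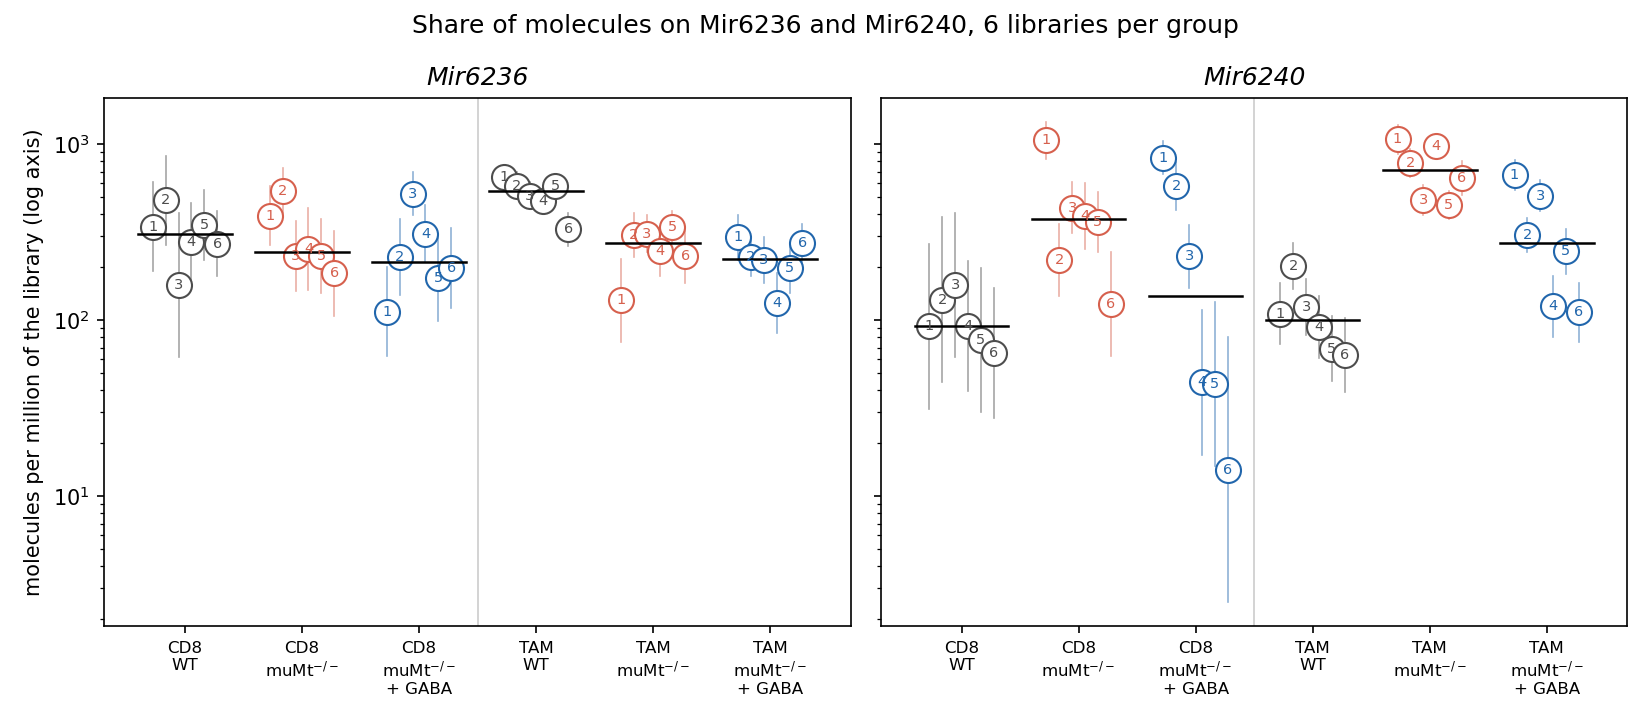
Share of *Mir6236* (left) and *Mir6240* (right) in each library, in CPM on a log axis, for CD8+ T cells and TAMs of 3 groups of 6 libraries. Numbers are replicates, thin lines are 95% Wilson intervals (counting error only) and black bars are group medians; for *Mir6240* the *muMt*-/- TAM libraries lie above all WT TAM libraries, and the CD8+ libraries with GABA span from 14.2 to 837 CPM.

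The shallowest TAM library, *muMt*-/- replicate 1, had the highest share of *Mir6240* and the second lowest of *Mir6236* among the 18 TAM libraries. It held 100254 molecules, of which 107 were *Mir6240* (1067 CPM, 95% Wilson interval 883 to 1289) and 13 were *Mir6236* (130 CPM, interval 75.8 to 222). The library with the most molecules, WT replicate 5 with 304100, had 21 molecules of *Mir6240* (69.1 CPM, interval 45.2 to 106). Such intervals cover counting error only. The share of *Mir6240* in TAMs was therefore compared with depth inside the groups, after subtracting group means, which the choice of the genes did not use.

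Within TAM groups, deeper libraries had a lower share of *Mir6240*. Pearson's r with log2 total molecules was -0.590 over 18 libraries (permutation test within groups, p = 0.00459, adjusted p = 0.02754 over 6 relations), and Spearman's rho was -0.670 (permutation p = 0.00387, adjusted p = 0.02322). Without the 2 libraries farthest from the median depth, r was -0.639 with an adjusted p of 0.0624 in the permutation test and rho was -0.727 with an adjusted p of 0.02292. A share has the total as its denominator, so the measures are not free of each other. For *Mir6236* in TAMs r was 0.404 (permutation p = 0.1575, adjusted p = 0.4726) and rho 0.236 (permutation p = 0.3911, adjusted p = 0.8911), and r was 0.0166 without those 2 libraries.

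TAM depth also differed between the groups. With log2 total molecules as a covariate, the difference of *Mir6240* between *muMt*-/- and WT TAMs was 2.03 (SE 0.32) where it was 2.77 without it, and that of *Mir6236* was -0.69 (SE 0.24) where it was -0.92. The direction of both was therefore the same with depth in the model, and the part of depth in the remaining difference was not tested. CD8+ T cells showed no detectable relation with depth: r was 0.0350 for *Mir6236* (permutation p = 0.8898, adjusted p = 0.8978; rho 0.0361, permutation p = 0.8911) and -0.0931 for *Mir6240* (permutation p = 0.5878, adjusted p = 0.8938; rho -0.139, permutation p = 0.5249). The 2 genes had no detectable relation with each other inside groups, with r = 0.150 in TAMs (permutation p = 0.5958, adjusted p = 0.8938; rho 0.0836, permutation p = 0.7651) and -0.0444 in CD8+ T cells (permutation p = 0.8978, adjusted p = 0.8978; rho 0.0588, permutation p = 0.8422).

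**Figure D2:**
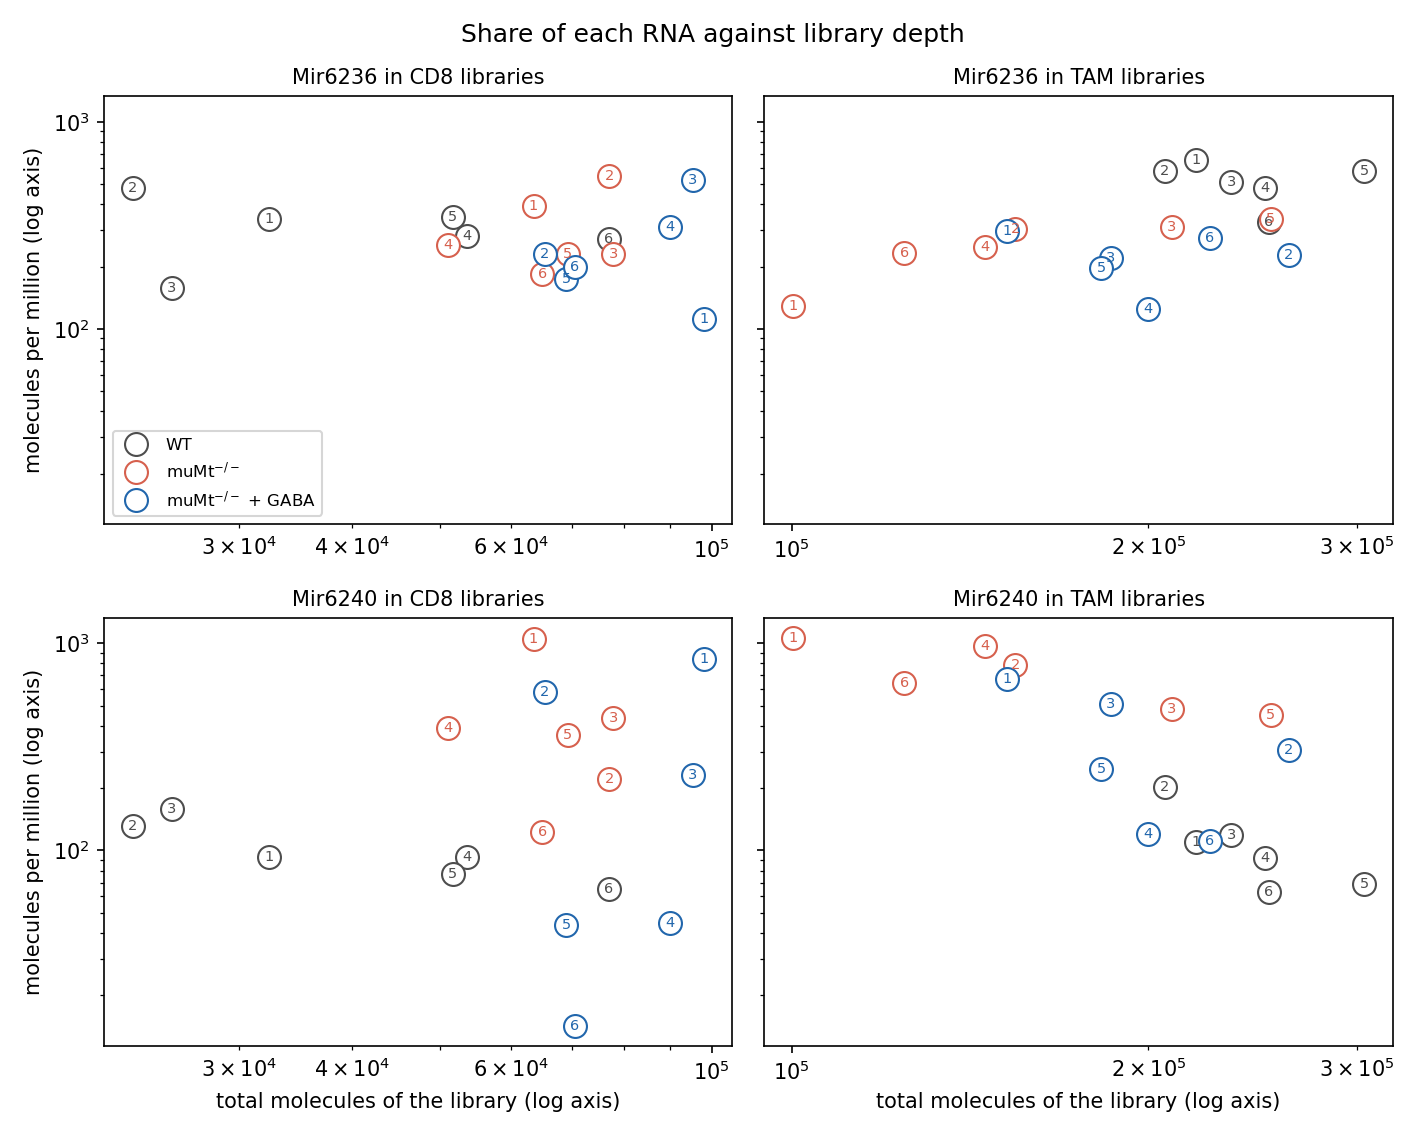
Share of each gene in CPM (log axis) against total molecules of the library (log axis), for CD8+ T cells (left) and TAMs (right), 18 libraries each. Colours are the 3 groups and numbers are replicates; in TAMs the share of *Mir6240* falls with depth within groups (r = -0.590), whereas that of *Mir6236* has no clear trend.

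CD8+ T cells were not used to choose the genes, so *Mir6240* was tested there. Its shares in TAM and CD8+ libraries of the same group and number varied alike (r = 0.744 after subtracting group means). Whether the CD8+ values are independent of the TAM values that chose the gene was therefore not tested. The lowest, median and highest library held 3, 4 and 5 molecules in WT mice, 8, 22.5 and 67 in *muMt*-/- mice, and 1, 13 and 82 with GABA. In share of the library, 5 of 6 *muMt*-/- libraries were above every WT library. In molecules all 6 were, but WT libraries were shallower (median 42065.5 against 67121.5 molecules). The share of all genes that separate in this way was not counted. The shares were 103 ± 35.0 CPM (SD, n = 6) in WT mice, 431 ± 327 in *muMt*-/- mice and 292 ± 342 with GABA. With so few molecules in WT mice, counting error alone is large: replicate 6 had 5 of 76898 molecules, or 65.0 CPM with a 95% Wilson interval of 27.8 to 152.

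The difference between *muMt*-/- and WT CD8+ T cells had the sign seen in TAMs but did not pass over all genes. The log2 difference of *Mir6240* was 2.29 (SE 0.62), with a share above all WT libraries in 5 of 6 (edgeR's quasi-likelihood test, Benjamini-Hochberg adjusted p = 0.3185 over 6663 genes). In this comparison 0% of genes had an adjusted p under 0.05; 411 had an unadjusted p under 0.05, and DESeq2 called 0 genes. As a single value, the mean log2 share of *Mir6240* was 1.69 higher (p = 0.00649 in an exact permutation test, two-sided; 0.039 when adjusted over the 6 exact tests made in these cells; the smallest possible p is 0.0022). The call thus depended on the test: edgeR's adjusted p was 0.01468 when only the 12 libraries compared were fitted (log2 difference 2.26) and 3.471e-08 without the filter on low numbers (2.31). Without *muMt*-/- replicate 1, which held 67 molecules, the difference was 1.81. The median log2 difference of all tested genes was 0.15 with TMM normalization and 0.04 with library totals alone, where *Mir6240* differed by 2.17. Depth differed between these groups too, and with log2 total molecules as a covariate the difference was 2.27 (SE 0.75).

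With GABA, CD8+ libraries fell on both sides of the WT range of *Mir6240*. In share of the library 3 of 6 were above and 3 of 6 below every WT library, so the fitted and the averaged differences were far apart. Against WT mice the log2 difference was 1.81 (SE 0.62) in edgeR's quasi-likelihood test (Benjamini-Hochberg adjusted p = 0.4578), whereas the mean log2 share was 0.29 higher (exact permutation test, p = 0.751, adjusted p = 0.784). The fitted difference follows the mean number of molecules, which the highest libraries carry; without the filter its adjusted p was 0.0001255 (edgeR with Benjamini-Hochberg adjustment, log2 difference 1.85). Against *muMt*-/- mice without GABA it was -0.48 (SE 0.48) in edgeR's quasi-likelihood test (Benjamini-Hochberg adjusted p = 0.9992), with 3 of 6 libraries below that whole group, and the mean log2 share differed by -1.39 (exact permutation test, p = 0.184, adjusted p = 0.552). The fitted value moved with single libraries: it was 0.00 without *muMt*-/- replicate 1 and -1.26 without GABA replicate 1. In these comparisons 0% of genes passed, GABA against *muMt*-/- mice and likewise 0% against WT mice; 247 and 459 had an unadjusted p under 0.05, and DESeq2 called 0 and 1. Against WT mice the median log2 difference of all genes was 0.21 with TMM and 0.05 with library totals.

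*Mir6236* showed no detectable difference between CD8+ groups. Its lowest, median and highest library held 4, 13 and 21 molecules in WT mice, 12, 17 and 42 in *muMt*-/- mice, and 11, 14.5 and 50 with GABA, with overlap between all groups. The shares were 313 ± 106, 307 ± 137 and 258 ± 146 CPM (SD, n = 6). In edgeR's quasi-likelihood test the log2 difference was 0.14 (SE 0.33) between *muMt*-/- and WT mice (Benjamini-Hochberg adjusted p = 0.9935), where 1 of 6 libraries was above all WT libraries. It was -0.20 (SE 0.31) between GABA and *muMt*-/- mice (edgeR, Benjamini-Hochberg adjusted p = 0.9992; 2 of 6 below) and -0.07 (SE 0.33) between GABA and WT mice (edgeR, adjusted p = 0.9838; 1 of 6 above and 1 of 6 below). The averaged log2 shares gave -0.09, -0.31 and -0.40 (exact permutation tests, p = 0.784, 0.431 and 0.297). The sign of the first value differs between the methods, and all of these differences were smaller than the spread between libraries.

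By median, macrophage RNA in the CD8+ libraries was lowest in WT mice, as *Mir6240* was, but highest with GABA. The median of *Mir6240* with GABA was 138 CPM, beside 376 in *muMt*-/- and 92.9 in WT mice. The 12 macrophage markers summed to 0 to 0.0676% of molecules in WT mice (median 0.0153%), to 0.0260 to 0.301% in *muMt*-/- mice (median 0.0685%) and to 0.0116 to 0.234% with GABA (median 0.0928%). The means of this sum were 0.0211% in WT mice and 0.106% both in *muMt*-/- mice and with GABA. In WT mice 9 of 12 were detected, with *Adgre1*, *Mrc1* and *Mertk* at 0, and in the other 2 groups 12 of 12; *C1qb* was the most abundant in WT and *muMt*-/- mice and *Itgam* with GABA. The CD8+ median of the marker sum was 1.23%, 7.38% and 8.45% of the TAM median in WT mice, *muMt*-/- mice and with GABA. The CD8+ median share of *Mir6240* was 92.4%, 52.8% and 49.96% of its TAM median, and that of *Mir6236* was 56.8%, 88.0% and 95.3%. The part of macrophage RNA in these shares was not tested.

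Of other cell types, fibroblasts left the most molecules. Fibroblast markers, led by *Col3a1*, summed in CD8+ libraries to 0.00559 to 0.0754% in WT mice (median 0.0180%), to 0.00154 to 0.140% in *muMt*-/- mice (median 0.0641%) and to 0.00283 to 0.0630% with GABA (median 0.0201%), with 5 of 5 detected in each group. The order of these medians was that of *Mir6240* in the same groups, with overlap between all groups. In TAMs the medians were 0.0397%, 0.0464% and 0.0617%, and 1 WT library reached 0.532%. Neutrophil markers had a median of 0.00136% in CD8+ libraries (0 in WT mice, 0.00268% in *muMt*-/- mice and 0.00230% with GABA). These medians also had the order of *Mir6240*, with overlap between all groups. In TAMs they summed to 0.00128 to 0.0155% in WT mice (median 0.00281%), to 0.00276 to 0.0123% in *muMt*-/- mice (median 0.00960%) and to 0.00132 to 0.00987% with GABA (median 0.00639%), led by *Csf3r*, with 3 of 4 detected and *Retnlg* at 0. The order of these medians too was that of *Mir6240* in the same groups, with overlap between all groups. Erythroid markers had a median of 0 in both and reached 0.0742% in 1 CD8+ library of WT mice. Epithelial tumour markers had a median of 0 in both cell types. The part of these cells in the values of *Mir6236* and *Mir6240* was not tested.

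Between the cell types the genes were compared in each group of mice, with all 36 libraries in a single fit. The TAM libraries are those on which the genes were selected, so these values are described without a test. In WT mice *Mir6236* was higher in TAMs than in CD8+ T cells by 1.10 on the log2 scale (SE 0.28), and 4 of 6 TAM libraries had a share above every CD8+ library. As background, 22.7% of all 8477 genes tested passed in this comparison (edgeR's quasi-likelihood test, Benjamini-Hochberg adjusted p under 0.05). With log2 total molecules as a covariate the difference was 0.14 (SE 0.63), in a model in which depth and cell type go together. The median of all genes was 0.36 with TMM and 0.04 with library totals, with which *Mir6236* differed by 0.76.

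In mice without B cells the difference of *Mir6236* between the cell types was smaller than its error in this fit. The log2 difference between TAMs and CD8+ T cells was 0.02 (SE 0.27) in *muMt*-/- mice (0 of 6 above and 1 of 6 below all CD8+ libraries) and -0.08 (SE 0.27) with GABA (0 of 6 outside). Both moved by more than their size: with 1 library left out they ran from -0.12 to 0.28 and from -0.24 to 0.28, and with depth as a covariate they were -0.50 (SE 0.40) and -0.58 (SE 0.39). In these comparisons 21.4% and 22% of all genes passed in edgeR's test. For *Mir6240* the differences were 0.54 (SE 0.68) in WT mice, 0.97 (SE 0.43) in *muMt*-/- mice and 0.24 (SE 0.44) with GABA, with at most 1 of 6 TAM libraries above all CD8+ libraries. All 3 moved with the libraries or the model: the first ran from 0.28 to 0.66 with 1 library left out and was 2.43 (SE 1.21) with depth as a covariate, the second was 1.48 without CD8+ *muMt*-/- replicate 1, and the third ran from -0.10 to 1.03 with 1 library left out. With GABA the median of all genes was 0.12 with TMM and -0.02 with library totals.

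Ordered by mean share, *Mir6236* ran from TAMs of WT mice through CD8+ T cells of WT and *muMt*-/- mice, TAMs of *muMt*-/- mice and CD8+ T cells with GABA to TAMs with GABA. In that order only the first step, from 522 to 313 CPM, exceeded the SDs of both neighbours. *Mir6240* ran from *muMt*-/- TAMs through *muMt*-/- CD8+ T cells, TAMs with GABA, CD8+ T cells with GABA and WT TAMs to WT CD8+ T cells. In both cell types the order of the groups was therefore *muMt*-/-, GABA and WT for *Mir6240*. In the order of all 6 groups, no step between neighbours exceeded the larger of their SDs. Within a cell type, only the step from *muMt*-/- TAMs to TAMs with GABA did (734 to 328 CPM, SDs 254 and 223).

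The spread of *Mir6240* inside the GABA groups was wide in both cell types. In TAMs with GABA replicates 1, 2 and 3 held 102, 80 and 95 molecules, and replicates 4, 5 and 6 held 24, 45 and 25. In CD8+ T cells with GABA the same numbers held 82, 38 and 22, and 4, 3 and 1; the lowest, replicate 6, had 1 of 70569 molecules, or 14.2 CPM with a 95% Wilson interval of 2.501 to 80.3. Thus replicates 1 to 3 were above replicates 4 to 6 in each cell type, although the labels name no batch and no reason for it. This split was seen in the values and was not tested.

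*Rn45s*, the precursor of the large and small ribosomal RNAs, took up a sizeable part of every library. Its lowest, median and highest share was 7.07, 9.35 and 11.4% in WT TAMs, 12.5, 13.3 and 18.8% in *muMt*-/- TAMs, and 6.96, 8.68 and 19.9% in TAMs with GABA. All *muMt*-/- TAM libraries were above all WT TAM libraries, a separation not counted over all genes. The log2 difference of *Rn45s* was 0.64 (SE 0.20) and did not pass over all genes (edgeR's quasi-likelihood test, Benjamini-Hochberg adjusted p = 0.08063). It passed in DESeq2 (0.67, adjusted p = 0.04033) and in a fit of the 12 libraries compared (0.65, edgeR, adjusted p = 0.003607). For CD8+ T cells the shares were 7.00, 9.18 and 13.2% in WT mice, 4.44, 8.65 and 11.2% in *muMt*-/- mice, and 3.28, 6.83 and 11.4% with GABA, and the ranges of the 3 groups overlapped. Its difference between *muMt*-/- and WT CD8+ T cells was -0.07 (SE 0.22; edgeR, Benjamini-Hochberg adjusted p = 0.9984), with 0 of 6 libraries above and 2 of 6 below all WT libraries.

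With the groups pooled after subtracting group means, libraries with more *Rn45s* had more *Mir6240*, but not in every group. In WT CD8+ T cells the library with 13.2% *Rn45s* had 92.6 CPM of *Mir6240*, and that with 8.88% had 158. In *muMt*-/- TAMs replicates 1 and 3 both had 12.5% *Rn45s*, with 1067 and 483 CPM, and replicate 5 had 15.8% with 453. The relation to *Rn45s* was chosen after the values were seen, so it is described without a test. Over 18 libraries and after subtracting group means, r was 0.785 in TAMs (rho 0.686) and 0.828 in CD8+ T cells (rho 0.804). Without the 2 libraries farthest from the median r was 0.700 and 0.764. For *Mir6236* r with *Rn45s* was 0.499 in TAMs (rho 0.496) and 0.249 in CD8+ T cells (rho 0.309). The shares in each relation come from the same library and have the same denominator. In the GABA groups *Rn45s* followed the spread of *Mir6240*: replicates 1 to 6 had 19.9, 9.83, 13.0, 6.96, 7.32 and 7.52% in TAMs and 10.7, 11.4, 8.63, 5.03, 3.28 and 4.22% in CD8+ T cells.

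**Figure D3:**
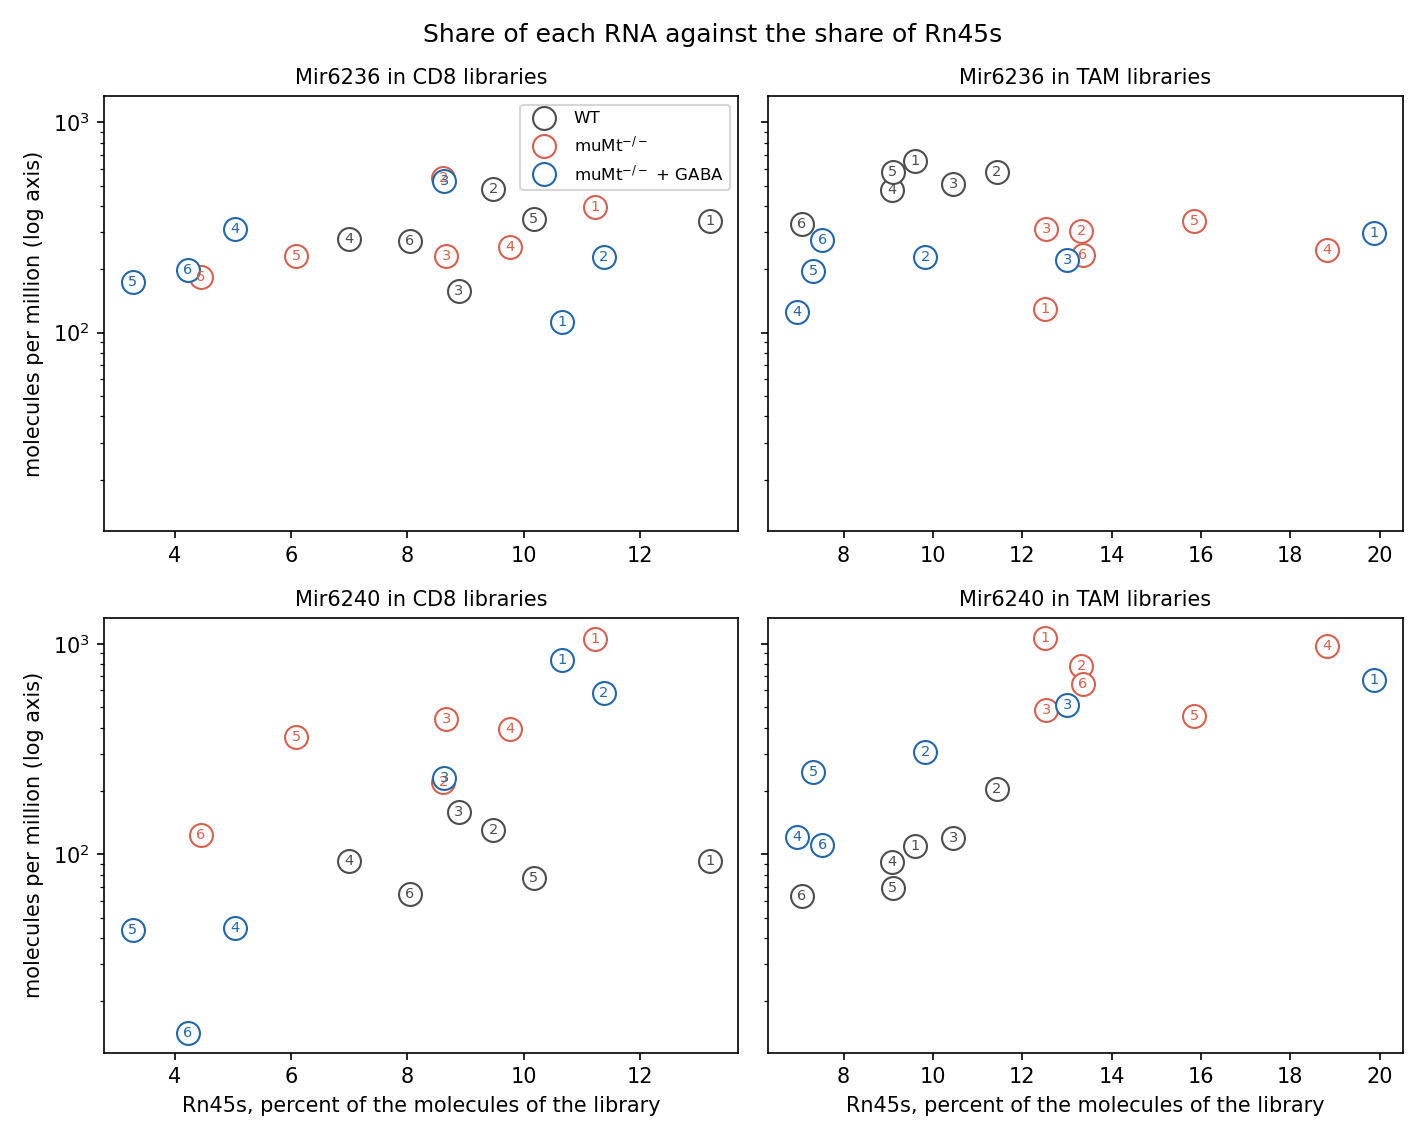
Share of *Mir6236* (top) and *Mir6240* (bottom) in CPM (log axis) against the share of *Rn45s* in percent of all molecules, for CD8+ T cells (left) and TAMs (right). Each point is 1 of 18 libraries, colours are groups and numbers are replicates. With groups pooled after subtracting group means, *Mir6240* rises with *Rn45s* in both cell types (r 0.828 and 0.785), though not in every group. In CD8+ T cells WT libraries lie below *muMt*-/- libraries at a similar *Rn45s* share.

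Of the other ribosomal RNA genes and of the loci looked for beside them, *Rn4.5s* and *Lars2* had molecules. *Rn4.5s*, a small repeat RNA, did not move with *Mir6240* in TAMs, with a difference of -0.09 (SE 0.24) between *muMt*-/- and WT mice (edgeR's quasi-likelihood test, Benjamini-Hochberg adjusted p = 0.9238). *Lars2*, the mitochondrial leucyl-tRNA synthetase, was higher by 0.71 (SE 0.18; edgeR, Benjamini-Hochberg adjusted p = 0.03169). That call was lost without any 1 of WT replicates 1, 3, 5 and 6 or *muMt*-/- replicates 2, 4 and 6, with a log2 difference of 0.65 to 0.72, and with depth as a covariate (0.52). *Mir6538*, *Mir2137*, *Mir5112* and *Mir5126* had 0 molecules in all libraries.

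*Mir6236* and *Mir6240* had more molecules than each of the other 1169 genes named Mir with a number. In TAMs they had 1307 and 1191 molecules over 18 libraries and in CD8+ T cells 336 and 345, whereas all the others together had 1765 and 711. Of the others, 73 had a molecule in TAMs and 48 in CD8+ T cells. A mean normalized number (counts divided by DESeq2's size factors) above 1 was found for 9 in TAMs (*Mir684-1*, *Mir703*, *Mir22hg*, *Mir682*, *Mir690*, *Mir6516*, *Mir692-3*, *Mir692-2* and *Mir17hg*) and for 7 in CD8+ T cells (*Mir703*, *Mir684-1*, *Mir682*, *Mir690*, *Mir22hg*, *Mir6516* and *Mir150*). *Mir22hg* and *Mir17hg* are host transcripts of microRNAs rather than hairpins, and *Mir692-2* and *Mir692-3* had 56 molecules each. The primer copies RNA at A stretches, and mature microRNAs have no poly(A) tail, so these numbers do not measure mature microRNA.

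The positions of both loci are given in GRCm38.p6 (mm10), the build of the count table. *Mir6236* lies on the plus strand at chr9:110281287-110281409, between *Cspg5*, 18710 bases away, and the long noncoding RNA gene *Gm42775*, 7542 bases away. *Mir6240* lies on the plus strand at chr5:114851948-114852064, between *Gm13821*, 9872 bases away, and *4930519G04Rik*, 1599 bases away. Each overlapped 0 other annotated genes.

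The mature sequences, from RefSeq, are shown with the seed in capitals, since the seed decides which targets a microRNA could have. They lie at chr9:110281353-110281371 and chr5:114851973-114851998.
mmu-miR-6236: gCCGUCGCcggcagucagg
mmu-miR-6240: cCAAAGCAucgcgaaggcccacggcg
The seeds differ from each other. Among 1738 mature mouse sequences, 0 others had the seed of mmu-miR-6236 and 1 other, mmu-miR-330-3p, had that of mmu-miR-6240. G and C made up 78.9% and 69.2% of the mature sequences.

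The hairpin of *Mir6240* is shown because the assay primes on A stretches, with the mature part in capitals.
Mir6240 hairpin: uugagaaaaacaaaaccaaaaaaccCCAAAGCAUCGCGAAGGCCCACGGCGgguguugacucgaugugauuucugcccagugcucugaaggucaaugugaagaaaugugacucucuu
Its longest run of A was 6 bases, at positions 18 to 23 of 117, inside a window of 20 bases with 16 A. In the annotated transcript of *Mir6236* the longest run was 8 bases, at positions 109 to 116 of 123, inside a window of 20 bases with 15 A. The motif AAAAAA, searched on the strand of the hairpin, was present in 17 of 1005 mouse hairpins of RefSeq (1.69%; median length 79 bases). Whether molecules started at these stretches was not tested.

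*Mir6236* and *Mir6240* had no sequence match to each other (0 hits). Among 141767 annotated mouse transcripts, neither had a match of at least 50 bases at 90% identity other than itself. Neither matched any of 5 transcripts related to ribosomal RNA in that set (*AY036118*, *CT010467.1*, *Gm26917*, *Gm42418* and *n-R5-8s1*). The full precursor of ribosomal RNA was not used here, so the likeness of both loci to ribosomal RNA was not tested. How reads that fit several places in the genome were counted is not given in the sources used here, and the molecules placed on both loci are uncertain to that extent.

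Genes that make, trim or use such RNAs were counted from 4 lists, beside all genes tested. The lists were chosen with earlier results of these data known, so their counts are descriptions only. Of 41 tested genes of RNA polymerase I and ribosomal RNA processing in CD8+ T cells and 46 in TAMs, 0 passed in any of the 6 comparisons (edgeR with Benjamini-Hochberg adjustment). Of all genes, 0% passed in the CD8+ comparisons. In TAMs 2.05% passed between *muMt*-/- and WT mice, 0.0211% between GABA and *muMt*-/- mice and 0.0739% between GABA and WT mice. The median log2 difference of this list between *muMt*-/- and WT mice was 0.04 in CD8+ T cells (26 of 41 higher), where that of all genes was 0.15 (62.3% higher). In TAMs it was -0.22 (14 of 46 higher, all genes -0.05 with 46.3% higher). Between GABA and *muMt*-/- mice it was 0.34 in CD8+ T cells (31 of 41 higher, all genes 0.03 with 53.5% higher). In TAMs it was then 0.21 (34 of 46 higher, all genes 0.06 with 55.8% higher). Between GABA and WT mice it was 0.34 in CD8+ T cells (36 of 41 higher, all genes 0.21 with 65.5% higher). In TAMs that value was 0.09 (29 of 46 higher, all genes 0.02 with 52.0% higher). At an unadjusted p under 0.05 there were 10 of the 46 between *muMt*-/- and WT TAMs, beside 1408 of all 9469 genes, and DESeq2 called 1 of them, beside 282 of all. In the other comparisons DESeq2 called 0, and at most 7 of the 41 had an unadjusted p under 0.05, between GABA and *muMt*-/- CD8+ T cells, beside 247 of all 6663 genes. *Npm1* and *Ncl*, abundant nucleolar proteins, differed by -0.23 (SE 0.19) and 0.04 (SE 0.19) in TAMs. Of 19 tested genes of the nuclear exosome and RNA tailing, 0 passed in edgeR or DESeq2 in any comparison. *Exosc2*, a subunit of the exosome, differed by -0.72 between *muMt*-/- and WT TAMs (edgeR, Benjamini-Hochberg adjusted p = 0.07065) and passed without the filter (-0.75), with filterByExpr (-0.70) and with the 12 libraries compared (-0.72); between GABA and *muMt*-/- TAMs it differed by 0.85 (edgeR, adjusted p = 0.1564) and passed only without the filter (0.85). Between *muMt*-/- and WT TAMs 5 of the 19 had an unadjusted p under 0.05, beside the same 1408 of 9469, with a median of -0.17, and in the other comparisons 0 to 4 had one, beside 801 and 665 of all genes in TAMs.

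Of 13 microRNA processing genes tested in TAMs, 1 was higher in *muMt*-/- than in WT mice and 0 were lower, where 2.05% of all genes passed, and DESeq2 called 2, beside 282 of all 9469. In the other 2 TAM comparisons 0 passed in edgeR or DESeq2. Of all genes, 0.0211% passed in edgeR between GABA and *muMt*-/- TAMs and 0.0739% between GABA and WT TAMs, and DESeq2 called 62 and 13. The gene of this list called by edgeR between *muMt*-/- and WT TAMs was *Ddx5*, an RNA helicase of the Drosha complex. Its log2 difference was 0.58 (SE 0.14, edgeR's quasi-likelihood test, Benjamini-Hochberg adjusted p = 0.02272), where the list's median was 0.41. The call was lost without any 1 of WT replicates 1, 3 and 6 or *muMt*-/- replicates 1 and 4, with 0.51 to 0.57, and with depth as a covariate (0.41). Of 10 tested in CD8+ T cells, 0 passed in edgeR or DESeq2 and at most 1 at an unadjusted p. Of all 6663 genes, 0% passed in edgeR in each of these comparisons. Between *muMt*-/- and WT, GABA and *muMt*-/-, and GABA and WT mice, DESeq2 called 0, 0 and 1 of them, and 411, 247 and 459 had an unadjusted p under 0.05.

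The list of nuclear long RNAs was also chosen with earlier results of these data known, so its counts are described and not read as enrichment. Of 4 tested, *Malat1* and *Neat1*, both retained in the nucleus, were higher in *muMt*-/- than in WT TAMs, where 2.05% of all genes passed. DESeq2 called 2 of the 4, beside 282 of all 9469. Between GABA and *muMt*-/- TAMs edgeR called 0 of them, beside 0.0211% of all genes, and DESeq2 2, beside 62 of all. Between GABA and WT TAMs each called 1, beside 0.0739% of all genes in edgeR and 13 genes in DESeq2. The log2 differences were 0.82 (SE 0.16; edgeR, Benjamini-Hochberg adjusted p = 0.00385) and 1.22 (SE 0.18; edgeR, adjusted p = 8.604e-05), and with depth as a covariate that of *Malat1* was as large (0.82) with a larger adjusted p (edgeR, 0.09885). *Gas5*, a snoRNA host transcript, was higher with GABA than in WT TAMs by 0.95 (SE 0.20; edgeR, Benjamini-Hochberg adjusted p = 0.04559). That call was lost without any 1 of WT replicates 2 to 6 or GABA replicates 1 to 5, with 0.76 to 0.98, and also with filterByExpr (0.96), with depth as a covariate (0.86) and with the 12 libraries compared (0.95). In CD8+ T cells 0 of the 4 passed in edgeR, in DESeq2 or at an unadjusted p, in any comparison. Of all 6663 genes, 0% passed there in edgeR. An unadjusted p under 0.05 was found for 411 between *muMt*-/- and WT, 247 between GABA and *muMt*-/- and 459 between GABA and WT mice.

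The genes most like *Mir6236* and *Mir6240* were found by Pearson's r of log2(normalized number + 1) over the 18 libraries of a cell type, group differences included. In TAMs *Mir6240* was most like *Gm20594* (r = 0.921), *Cflar*, *Cpsf2*, *Gnai2* and *Basp1* (0.881), the second a regulator of caspase 8 and the third a subunit of the complex that cuts the 3′ ends of mRNAs. Among 5309 genes, 35 had a higher r with it than *Rn45s* (0.811). In CD8+ T cells *Mir6240* was most like *Ifrd1* (0.834), *Lamp2*, *Iqgap1* and *Basp1* (0.775), and 16 of 1882 genes had a higher r than *Rn45s* (0.648). So *Basp1* was among the genes named in both cell types. Its mean normalized number was 90.8, 158 and 120 in TAMs of WT mice, of *muMt*-/- mice and with GABA. In CD8+ T cells it was 1.38, 9.76 and 8.48 (SD 2.44, 14.3 and 13.0). The part of macrophage RNA in these CD8+ values was not tested.

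*Mir6236* had other partners. In TAMs these were *Epn1* (0.778), *Rrp1*, *Stx2*, *Kcnab2* and *Tuba1c* (0.709), of which *Rrp1* acts in ribosome assembly in the nucleolus. Over CD8+ libraries they were *Tpm3* (0.659), *2900060B14Rik*, *Ccdc50*, *Birc6* and *Slc1a5* (0.589). With each other the 2 microRNA loci had r = -0.430 over the TAM libraries, which the choice of the genes shapes, and 0.0561 over the CD8+ libraries. In sparse counts such values are descriptions of these libraries.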

How the data were processed

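Digital RNA sequencing of 100 sorted cells per library was analysed for 36 libraries from 1 table. The authors mapped reads with STAR to mm10 (submitters' processing notes) and the refFlat annotation, and the deposited values are counts of barcoded molecules on each gene, without normalization. ERCC spike-ins were added per the labels, but 0 spike-in genes were in the table. It holds 24781 genes, of which 9188 had no molecule, and 0 columns were left without a sample.

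Genes with a mean above 1 after division by DESeq2 size factors were tested with edgeR 4.0.16 (quasi-likelihood F-test, TMM, 1 coefficient per group, 18 libraries per cell type or all 36) and Benjamini-Hochberg adjustment at 0.05. DESeq2 1.42.0, exact permutation tests (6 against 6, 0.5 molecules added before log2), no filter, filterByExpr, other factors, log2 total molecules as a covariate, 12 libraries, the replicate number as a block and leaving out each library were alternatives. The SE of an edgeR log2 difference is its absolute value divided by the square root of the F statistic, not a separate estimate. Correlations used 100000 permutations within groups. The procedure was tested on simulated data. R 4.3.3, Python 3.11.15, numpy 2.4.6, scipy 1.17.1, pandas 2.3.3, matplotlib 3.10.9 and BLAST+ 2.17.0 were used, with GENCODE and RefSeq sequences of GRCm38.p6.

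Named genes were both loci, ribosomal RNA genes, other microRNA genes with a mean above 1, up to 4 abundant genes of each of 4 lists (RNA polymerase I and ribosomal RNA processing, exosome and tailing, microRNA processing, nuclear long RNA), genes named for passing in those lists, cell type markers, and the 5 genes most like each locus among those with a mean of at least 5. The genes and lists were chosen with earlier results of these data known. Of these, 1 marker and 1 gene like a locus are not reported here. A search of all genes against the ribosomal RNA precursor was not run. Intervals and depth cover counting error only.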

Additional observations from a re-analysis of the deposited data

Results flagged for a closer look

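*Mir6240* in CD8+ T cells of *muMt*-/- replicate 1 stood apart from the rest of its group. Its normalized number was 67.8 (67 molecules), where the other 5 libraries had 6.66 to 25.9, and its gap to the nearest was 0.685 of the range of the group. The 2 genes were looked at in 6 groups each, 12 in all, and chance gives such a gap in about 1 in 20 groups. Its cause was not tested.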

How the results depend on the processing

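The log2 difference of *Mir6240* between *muMt*-/- and WT CD8+ T cells (2.29) kept its sign in all 9 alternatives (1.69 to 2.31), with edgeR or DESeq2 adjusted p from 3.471e-08 to 0.9997. It passed without the filter (2.31), with the 12 libraries compared (2.26) and in the exact permutation test (1.69), and was 1.81 to 2.48 when each library was left out. Against WT with GABA (1.81) it passed without the filter (1.85) and was 0.998 to 2.04 with a library left out. Without the filter many genes at 0 enter the fit; the cause of the smaller p was not tested. In TAMs, *Mir6240* moved from 2.77 to 2.03 between *muMt*-/- and WT mice with log2 total molecules as a covariate, and was 2.66 to 3.04 with a library left out.

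Between cell types, *Mir6236* in WT mice (1.10) fell to 0.14 with the covariate and was 0.99 to 1.21 with a library left out. *Mir6240* in *muMt*-/- mice (0.97) was 1.01 without the filter, 1.88 with the covariate and 1.48 without CD8+ *muMt*-/- replicate 1 (0.77 to 1.48 over all libraries left out). The correlation of *Mir6240* with depth in TAMs (-0.590) had an adjusted p of 0.0624 without the 2 libraries farthest from the median depth (r = -0.639, with fewer libraries). The sign of *Mir6236* between CD8+ *muMt*-/- and WT mice (0.14) was kept in 6 of 9 alternatives, and the adjusted p was never under 0.784.

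The correlation over genes of libraries with the same replicate number ran from -0.394 to 0.45 over 9 pairs of groups, with the highest value between *muMt*-/- and GABA CD8+ groups (3 of 6 over 0.1), and 0 to 2 of 6 correlated best with their own number. With the number as a block, *Mir6240* differed by 2.02 between *muMt*-/- and WT CD8+ T cells (adjusted p = 0.05148, edgeR) and by 1.19 between TAMs and CD8+ T cells of *muMt*-/- mice. Between GABA and *muMt*-/- CD8+ T cells it differed by -0.80 with the block (adjusted p = 0.9994, edgeR) and by -0.48 without. Between GABA and WT CD8+ T cells these values were 1.21 (adjusted p = 0.4893, edgeR) and 1.81.

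Counts of genes with an adjusted p under 0.05 changed more. In CD8+ T cells *muMt*-/- against WT gave 0, but 72 without the filter, 1 with 12 libraries and 13 without WT replicate 5. GABA against *muMt*-/- gave 0, but 11 without the filter, 2 with the block, 6 with the covariate and 1 with 12 libraries. GABA against WT gave 0, but 64 without the filter. It gave 1 in DESeq2, with DESeq2 size factors, with library totals, with the block and with 12 libraries. Both GABA comparisons gave 0 to 1 with a library left out. In TAMs *muMt*-/- against WT gave 194, but 343 without the filter, 295 with filterByExpr, 324 with 12 libraries, 11 with the covariate and 69 to 230 with a library left out. GABA against *muMt*-/- gave 2, but 7 with library totals, 62 in DESeq2, 51 without the filter, 4 with the block, 5 with the covariate and 2 to 35 with a library left out. GABA against WT gave 7, but 13 in DESeq2, 63 without the filter, 2 with filterByExpr, 3 with 12 libraries and 2 to 9 with a library left out. TAMs against CD8+ T cells gave 1928, 1810 and 1869, but 412, 1002 and 851 with the covariate, and 1166 and 1209 with filterByExpr in WT mice and with GABA.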

Other observations

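*Mir6240* also varied alike in TAM and CD8+ libraries that bear the same group and number, a relation chosen after the values, with the split of the GABA replicates, were seen, so it is described without a test. After subtracting group means, r was 0.744 over 18 pairs (rho 0.754) and 0.746 without the 2 farthest from the median. For *Mir6236* r was -0.191 (rho -0.150) and for *Rn45s* 0.574 (rho 0.517). Within a group each library came from a mouse of its own, but the labels do not say whether TAM and CD8+ libraries of the same number share a mouse or a day, so what they share was not tested.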
